A study of Mus musculus with 24 samples.

Results

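The genes described here are the axon guidance ligands and receptors of the mouse: the Eph receptors and ephrins, semaphorins of classes 3 to 7 with their plexin and neuropilin receptors, the Slit ligands and Robo receptors, and the netrins with Dcc and the Unc5 receptors. They are defined by gene symbol, by a rule that uses no measured value, and number 69 of the 21887 protein-coding genes on the main chromosomes of the GRCm38.p6 annotation. 1 further symbol that matched belonged to a gene that is not protein-coding and was left out. A gene was said to hold a peak of a list when at least 1 bp of that peak fell in the gene body or in its 5 kb flanks.

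The study mapped SOX8 and SOX9, related transcription factors, on chromatin of the wild-type mouse retina at 2 ages, postnatal days 2 (P2) and 17 (P17), by CUT&RUN, in which an antibody brings a nuclease to its target and the released DNA is sequenced. Each reaction used 600000 nuclei of whole retina. The libraries of each age were 4 for SOX8, made with antibodies of 2 makers (GeneTex and Proteintech), and 2 each for SOX9, for the promoter mark H3K4me3, for H3K27ac, a mark of active promoters and enhancers, and for a nonspecific IgG. The 8 deposited peak lists, 1 for each target and age, cover the groups of 20 of the 24 libraries, and the 4 IgG libraries were not analysed here. No genotype other than wild type was used.

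Axon guidance cues are secreted or held on the cell surface, and the growth cone of an axon turns toward or away from them through receptors that act on the cytoskeleton. In the retina, Eph receptors and ephrins lay out the map that ganglion cell axons form on their targets, netrin and Dcc guide these axons out of the eye, Slit and Robo keep them on their path, and semaphorins and plexins sort neurites into the layers of the plexiform zones. Several of these genes also act outside axons, in cell sorting, in blood vessels and in glia.

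No list names a replicate and every score is 0, so no value below has a replicate error or a test, and a gene without a peak is a gene at which none was listed. The SOX lists held 2653 (P2 SOX8), 2400 (P17 SOX8), 5476 (P2 SOX9) and 2855 (P17 SOX9) peaks, and the H3K27ac list held 287845 peaks at P2 against 29909 at P17. The retinal label was checked by H3K4me3 at marker genes. At P2, 8 of 8 progenitor, 6 of 9 photoreceptor and 6 of 7 Müller glia markers held a peak, and at P17 the counts were 5, 9 and 3. Bipolar markers went from 0 to 2 of 4, amacrine and horizontal markers had 4 of 5 at both ages, and ganglion cell markers 1 of 6 at both ages. Markers of other cells were low at both ages, with 0 of 5 for microglia, 1 of 5 for endothelium, 1 of 5 for pigment epithelium, 1 of 4 for lens, 1 of 4 for oligodendrocytes and 0 of 6 for other tissues. The P17 SOX9 list held a peak at 9 of 9 photoreceptor markers and at 0 of 7 Müller glia markers, against 2 and 6 at P2. At the 8 progenitor markers SOX9 went from 8 to 3. SOX8 moved the same way, from 2 to 5 photoreceptor, 4 to 1 Müller glia and 6 to 1 progenitor markers. The marker counts thus moved with age beside every count below, their part in the results was not tested, and fewer cells of a type cannot be told apart from less signal per cell.

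A larger share of the guidance genes than of all protein-coding genes held a SOX peak in each of the 4 SOX lists. At P2, SOX8 peaks lay at 17 of 69 guidance genes (24.6%, against 15.1% of all protein-coding genes) and SOX9 peaks at 35 (50.7%, against 27.7%). At P17, SOX8 peaks lay at 18 (26.1%, against 13.0%) and SOX9 peaks at 20 (29.0%, against 15.7%). H3K4me3 was listed at 49 genes at P2 (71.0%, against 49.3%) and at 42 at P17 (60.9%, against 50.9%). H3K27ac was listed at 69 of 69 at P2 (100%, against 81.8%) and at 46 at P17 (66.7%, against 57.0%). Most marker groups also fell with age in the H3K27ac lists. Counts went from 8 to 5 of 8 for progenitors and 7 to 5 of 7 for Müller glia. They went from 5 to 4 of 5 for amacrine and horizontal cells and 2 to 1 of 6 for ganglion cells. Photoreceptor markers stayed at 9 of 9, and bipolar markers went from 2 to 3 of 4. Microglia went from 5 to 0 of 5, endothelium from 5 to 2 of 5 and pigment epithelium from 4 to 1 of 5. Lens went from 4 to 3 of 4, oligodendrocytes from 4 to 2 of 4 and other tissues from 4 to 1 of 6. The part of any of these cells in the result was not tested. The plot of these shares shows the widest gap between guidance genes and all genes for P2 SOX9, and the narrowest among SOX lists for P2 SOX8.

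**Figure D1:**
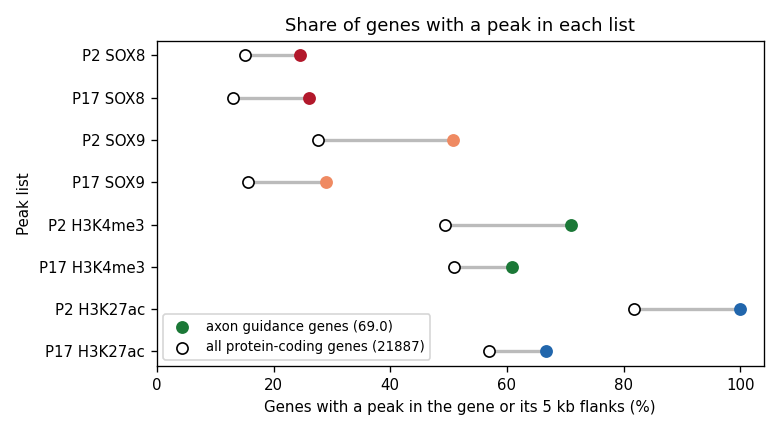
Share of genes (x axis, percent) with a peak in the gene or its 5 kb flanks in each of the 8 peak lists (y axis), for 69 guidance genes (filled) and 21887 protein-coding genes (open). In each list the filled point lies to the right of the open one, from 24.6% against 15.1% for P2 SOX8 to 50.7% against 27.7% for P2 SOX9.

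Guidance genes are long, and a long gene has more room for a peak. Their median length was 46.3 kb against 17.2 kb over all protein-coding genes, from 4.64 kb for Efna4, an ephrin, to 1555.5 kb for Robo2, a receptor for Slit. The shares were therefore also set side by side within classes of length. Among genes under 20 kb, P17 SOX9 peaks lay at 10 of 21 guidance genes (47.6%) against 14.9% of all genes of that length, and P2 SOX9 peaks at 8 (38.1%) against 22.8%. Among genes of 100 kb and over, P2 SOX9 peaks lay at 18 of 32 (56.2%) against 36.8%, whereas P17 SOX9 peaks lay at 4 (12.5%) against 17.1%, and P17 SOX8 peaks at 4 (12.5%) against 13.7%. Among genes of 20 to 100 kb, P17 SOX8 peaks lay at 8 of 16 (50%) against 13.7%, and P17 SOX9 peaks at 6 (37.5%) against 16.6%. The 4 long genes were Ephb2, Nrp2, Plxna2 and Plxnc1 for P17 SOX8, and Ephb1, Ephb2, Nrp2 and Plxna2 for P17 SOX9. At P17 the share of guidance genes with a SOX peak was thus above that of all genes in the shorter classes and not in the longest one. P2 SOX8 peaks lay at 23.8% against 12.9% in the shortest class, 31.2% against 17.3% in the middle one and 21.9% against 19.0% in the longest. Of the marks, P17 H3K4me3 was below all genes at 20 to 100 kb (56.2%, against 60.8%). P17 H3K27ac was below all genes at 100 kb and over (68.8%, against 75.1%). Elsewhere, and at P2, both marks were above, in part by little. P2 H3K27ac was at 100% of guidance genes in each class, against 71.2%, 92.6% and 99.3% from shortest to longest. At 100 kb and over it was thus near the share of all genes, and P17 H3K4me3 was at 68.8% against 65.2%.

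A peak near a start was scored separately, within 1 kb of a transcription start listed by RefSeq. For the 10 genes with no listed start (Dcc, Efnb3, Ntn1, Plxna1, Plxna4, Sema3b, Sema3f, Sema6a, Slit1 and Unc5d), either end of the gene was taken in its place, so that a peak at the 3′ end of these genes is also counted. By this measure, SOX8 peaks lay at the start of 12 guidance genes at P2 (17.4%, against 12.1% of all genes) and of 10 at P17 (14.5%, against 8.90%). SOX9 peaks lay at the start of 30 at P2 (43.5%, against 22.6%) and of 12 at P17 (17.4%, against 10.8%). H3K4me3 lay at the start of 47 at P2 (68.1%, against 44.3%) and of 39 at P17 (56.5%, against 45.6%). H3K27ac lay at the start of 59 at P2 (85.5%, against 67.2%) and of 31 at P17 (44.9%, against 47.3%), so that at P17 the share of guidance genes was the lower one at starts and the higher one over whole genes.

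Among genes that held H3K4me3 of the same age, the differences from all genes were smaller. P2 SOX8 peaks lay at 14 of 49 such guidance genes (28.6%, against 29.8%), a share near that of all marked genes. P2 SOX9 peaks lay at 32 of 49 (65.3%, against 53.3%), P17 SOX8 peaks at 14 of 42 (33.3%, against 23.1%) and P17 SOX9 peaks at 15 of 42 (35.7%, against 27.4%).

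**Figure D2:**
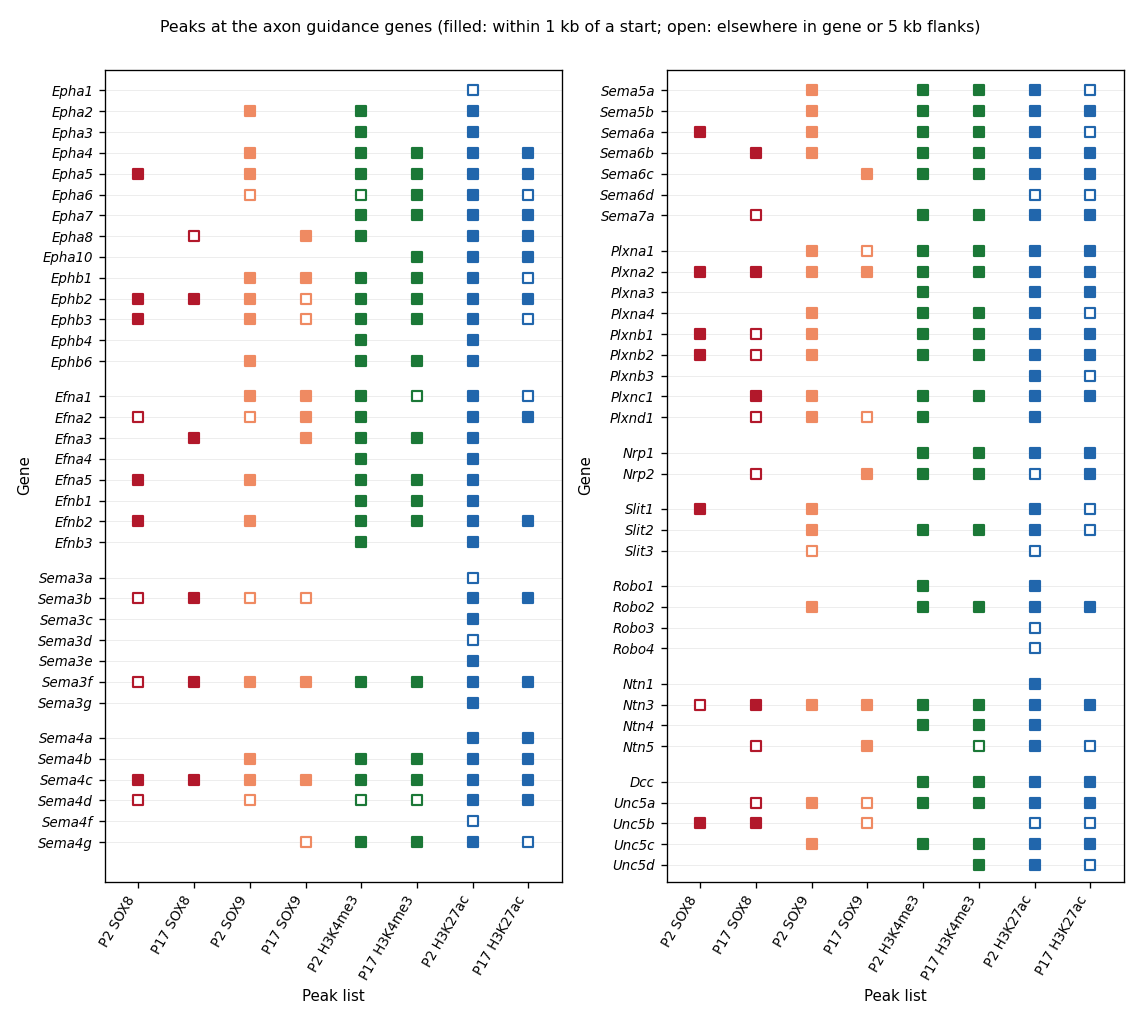
Peaks of the 8 lists (x axis) at each of the 69 guidance genes (y axis, by family). A filled square is a peak within 1 kb of a start of the gene, or of either end for the 10 genes with no listed start, and an open square is a peak elsewhere in the gene or its 5 kb flanks. P2 SOX9 has the most squares of the SOX lists, with 35 genes, and the last column shows that 23 genes have P2 H3K27ac but no P17 H3K27ac.

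The map of peaks by gene shows that most guidance genes with a SOX8 or SOX9 peak held that factor at 1 age. The same was so for most of all protein-coding genes with a peak of that factor. For SOX8, 8 genes held a peak at P2 only (11.6%, against 7.0% of all genes) and 9 at P17 only (13.0%, against 4.94%). SOX8 peaks of both ages lay at 9 (13.0%, against 8.08%). For SOX9, 22 genes held a peak at P2 only (31.9%, against 16.4% of all genes) and 7 at P17 only (10.1%, against 4.35%). SOX9 peaks of both ages lay at 13 (18.8%, against 11.4%). The P2 SOX9 list is the longer one, with 5476 peaks against 2855. When its widest peaks were taken in the P17 number, 16 genes held SOX9 at P2 only (23.2%, against 6.90%). In that setting 8 held it at P17 only (11.6%, against 8.16%) and 12 at both ages (17.4%, against 7.58%). Over the whole lists with the factors pooled, 43 genes held a SOX peak in some list (62.3%, against 33.9% of all genes). Of these, 18 did so at P2 only (26.1%, against 14.4%), 7 at P17 only (10.1%, against 5.48%) and 18 at both ages (26.1%, against 14.0%). The P2-only genes were the ligands Efna5, Efnb2, Sema4b, Sema4d, Sema5a, Sema5b, Sema6a, Slit1, Slit2 and Slit3 and the receptors Epha2, Epha4, Epha5, Epha6, Ephb6, Plxna4, Robo2 and Unc5c. The P17-only genes were the ligands Efna3, Ntn5, Sema4g, Sema6c and Sema7a and the receptors Epha8 and Nrp2.

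The factors were then compared with each other at the same age. At P2, 16 genes held both SOX8 and SOX9 (14.5% of all genes), 19 held SOX9 alone (13.3%) and 1, the netrin receptor gene Unc5b, held SOX8 alone (0.631%). At P17, 13 held both (9.29%), 5 held SOX8 alone (3.73%), namely Plxnb1, Plxnb2, Plxnc1, Sema6b and Sema7a, and 7 held SOX9 alone (6.45%), namely Efna1, Efna2, Ephb1, Ephb3, Plxna1, Sema4g and Sema6c. Peaks in all 4 SOX lists lay at 6 guidance genes (6.45% of all genes): Ephb2, Ntn3, Plxna2, Sema3b, Sema3f and Sema4c. The 6 are 8.70% of the guidance genes, a share near the background.

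The promoters of the guidance genes with the most SOX lists at their start are shown here, with those of 3 genes that held a SOX peak at P17 only, because their peaks are described below. Each is the 250 bases before a RefSeq start, from GRCm38.p6, written 5′ to 3′ on the strand of the gene. Capitals mark ACAAT or ACAAAG, letters that SOX factors are known to favour, searched on both strands (ATTGT and CTTTGT are the reverse complements). The motifs share their opening letters and cannot match at the same base. The Plxna2 start (chr1:194619579-194619828, plus strand) and the Sema4c start (chr1:36557558-36557807, minus strand) lay in or within 1 kb of peaks of all 4 SOX lists, Ephb2 (chr4:136836013-136836262, minus strand) of all but P17 SOX9, and Ntn3 (chr17:24209388-24209637, minus strand) of all but P2 SOX8. The Nrp2 (chr1:62703067-62703316, plus strand), Efna3 (chr3:89322940-89323189, minus strand) and Sema6c (chr3:95160170-95160419, plus strand) starts had P17 SOX9 alone. The printed Nrp2 bases end before that peak begins, at 62703809, and the others lie under the peaks named.
Plxna2: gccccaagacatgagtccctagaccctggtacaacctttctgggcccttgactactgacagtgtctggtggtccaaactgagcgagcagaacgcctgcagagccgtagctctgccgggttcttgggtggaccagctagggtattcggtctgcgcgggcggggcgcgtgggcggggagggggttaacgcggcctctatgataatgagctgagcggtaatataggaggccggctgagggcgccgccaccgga
Sema4c: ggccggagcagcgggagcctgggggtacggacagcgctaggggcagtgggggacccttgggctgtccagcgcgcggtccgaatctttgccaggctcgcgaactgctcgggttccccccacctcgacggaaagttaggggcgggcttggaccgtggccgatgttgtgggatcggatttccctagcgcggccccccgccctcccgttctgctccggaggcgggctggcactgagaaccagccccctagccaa
Ephb2: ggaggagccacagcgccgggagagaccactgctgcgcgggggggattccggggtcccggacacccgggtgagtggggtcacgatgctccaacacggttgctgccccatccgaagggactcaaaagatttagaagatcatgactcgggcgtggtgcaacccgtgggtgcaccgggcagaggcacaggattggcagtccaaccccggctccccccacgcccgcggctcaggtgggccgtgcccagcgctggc
Ntn3: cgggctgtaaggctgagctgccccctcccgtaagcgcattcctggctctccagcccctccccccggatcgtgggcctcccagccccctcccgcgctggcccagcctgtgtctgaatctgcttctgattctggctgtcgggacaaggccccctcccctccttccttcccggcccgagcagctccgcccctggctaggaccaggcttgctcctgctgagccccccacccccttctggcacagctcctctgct
Nrp2: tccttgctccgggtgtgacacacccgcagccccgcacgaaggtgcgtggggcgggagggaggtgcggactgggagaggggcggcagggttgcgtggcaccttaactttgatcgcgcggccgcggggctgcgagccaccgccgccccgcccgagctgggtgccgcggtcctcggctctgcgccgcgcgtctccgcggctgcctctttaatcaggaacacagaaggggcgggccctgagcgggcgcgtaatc
Efna3: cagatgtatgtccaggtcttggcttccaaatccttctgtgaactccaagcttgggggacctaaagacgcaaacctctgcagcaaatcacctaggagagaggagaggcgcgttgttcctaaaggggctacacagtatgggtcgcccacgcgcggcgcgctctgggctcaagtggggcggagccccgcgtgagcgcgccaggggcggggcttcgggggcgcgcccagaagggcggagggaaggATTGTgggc
Sema6c: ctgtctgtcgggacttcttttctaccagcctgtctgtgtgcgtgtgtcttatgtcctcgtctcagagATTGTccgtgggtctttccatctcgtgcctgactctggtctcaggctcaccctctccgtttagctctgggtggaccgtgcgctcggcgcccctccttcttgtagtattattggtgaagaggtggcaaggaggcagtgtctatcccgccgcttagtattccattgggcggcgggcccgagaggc
The first 5 hold neither set of letters, and Efna3 and Sema6c hold ACAAT on the reverse strand. Their GC content was 62.8% for Plxna2, 69.6% for Sema4c, 68.4% for Ephb2, 69.2% for Ntn3, 72.4% for Nrp2, 63.6% for Efna3 and 57.6% for Sema6c. CG dinucleotides numbered 18, 23, 20, 11, 32, 19 and 15 in the same order.

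Over the 59 guidance genes with a listed start, 75 starts were read. Starts within 1 kb of a SOX peak (37 starts) had a median GC content of 66.8% and a median of 20 CG dinucleotides, and those without (38 starts) 60.2% and 10. ACAAT was found in 5 of the 37 (13.5%) and in 8 of the 38 (21.1%), and ACAAAG in 1 (2.70%) and 6 (15.8%). Over all 21263 protein-coding starts, 25.1% held ACAAT, 14.9% held ACAAAG and the median GC content was 55.6%. The 21 guidance gene starts with neither a SOX peak nor H3K4me3 had a median GC content of 54.4%, with ACAAT in 6 (28.6%) and ACAAAG in 5 (23.8%). The 17 starts with H3K4me3 at either age and no SOX peak had a median GC content of 64.0% and 15 CG dinucleotides. They held ACAAT in 2 (11.8%) and ACAAAG in 1 (5.88%), so starts with H3K4me3 alone lay close to those near SOX peaks. Guidance gene starts near SOX peaks were thus the more GC-rich ones, as over all genes, where starts with a SOX peak had a median GC content of 63.6% and 15.1% of them held ACAAT. These letters are short, and no match says only that they are not in this window.

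The ligands came first. Of 35 ligand genes, 22 held a SOX peak in some list (62.9%), as did 21 of 34 receptor genes (61.8%), against 33.9% of all genes. That last share is the background for the count of genes with a SOX peak in each family below, and no family was tested. Of the 8 ephrins, membrane-bound ligands of Eph receptors, 5 held a SOX peak. All 8 held H3K4me3 at P2 (49.3% of all genes) against 5 at P17 (50.9%). Efna5 and Efnb2, ephrins that set positional values in the retina and its targets, held SOX8 and SOX9 at their starts at P2 and neither at P17. At Efna5 the P2 SOX8 peak covered chr17:62880328-62884276 and the P2 SOX9 peak chr17:62879070-62884711, and at Efnb2 they covered chr8:8660509-8662306 and chr8:8659281-8662400. H3K4me3 stayed listed at both genes at P17. Efnb2 also held the widest P2 H3K4me3 peak of any guidance gene, at 8876 bp.

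Efna1, Efna2 and Efna3 differed from them. Efna3 held no SOX peak at P2. At P17 it held SOX9 over chr3:89319560-89324725 and SOX8 over chr3:89318861-89321550 and chr3:89315221-89318036, and no P17 H3K27ac. Efna1 held SOX9 at its start at both ages, over chr3:89276447-89283418 at P2 (6972 bp) and chr3:89277049-89282666 at P17, and the P17 peak overlapped neither mark of that age. At Efna2 the P2 SOX8 peak (chr10:80189761-80191476) and the P2 SOX9 peak (chr10:80189682-80191597) lay at the 3′ end of the gene, 11.1 and 11.2 kb from the start, while the P17 SOX9 peak (chr10:80177507-80183138) lay at its start. Efna4, Efnb1 and Efnb3 held no SOX peak in any list.

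Of the 7 class 3 semaphorins, secreted cues that act through neuropilins and plexins, 2 held any SOX peak, Sema3b and Sema3f, which lie near each other on chromosome 9. The other 5 (Sema3a, Sema3c, Sema3d, Sema3e and Sema3g) held no H3K4me3 at either age, and no P17 H3K27ac. Both genes with peaks have close neighbours. The Sema3b peaks of P2, chr9:107611402-107613857 for SOX8 and chr9:107611318-107614137 for SOX9, lay outside the gene, within 1 kb of a start of Gnai2, a G protein subunit gene. The P17 Sema3b peaks lay in the gene, at chr9:107598115-107603131 for SOX8 and chr9:107600633-107607165 for SOX9. Sema3b itself held no H3K4me3 at either age.

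At Sema3f, the peaks at one end of the region lay at Gnat1, the gene of rod transducin. These were the P2 SOX8 peak (chr9:107675346-107677792), the wider P17 SOX8 peak (chr9:107673627-107683195, 9569 bp) and the P17 SOX9 peak (chr9:107664636-107682323, 17688 bp), the widest SOX peak of all guidance genes, which also reached Slc38a3. Gnat1 is a photoreceptor marker, so these peaks cannot be assigned to Sema3f alone. Other peaks lay clear of any neighbour's start. At the opposite end of the gene, SOX9 covered chr9:107708543-107711703 at P2 and chr9:107708402-107711539 at P17, and SOX8 covered chr9:107707441-107711755 at P17. Inside the gene, SOX9 covered chr9:107696174-107701140 at P2 and chr9:107696651-107704061 at P17, with H3K27ac and without H3K4me3 at both ages.

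Of the 6 class 4 semaphorins, transmembrane ligands, 4 held a SOX peak, and Sema4c held one at its start in each SOX list. Its peaks covered chr1:36555695-36560275 for P2 SOX8 (4581 bp), chr1:36555487-36560314 for P17 SOX8 (4828 bp), chr1:36555118-36559832 for P2 SOX9 (4715 bp) and chr1:36549299-36562320 for P17 SOX9 (13022 bp). The first 3 had nearly the same bounds, and the last took in nearly the whole gene of 12.1 kb. Sema4d, known in immune cells and in the nervous system, held SOX8 (chr13:51790982-51794701) and SOX9 (chr13:51790121-51793498) at P2 at the upstream end of the gene, with centres at -36.2 and -35.1 kb from its listed start, both with H3K4me3. Sema4b held P2 SOX9 at its start. The P17 SOX9 peak scored for Sema4g (chr19:45004911-45008926) lay beyond the 3′ end of that gene, at the starts of Mrpl43 and Twnk. Sema4a and Sema4f held neither SOX nor H3K4me3.

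Of the 7 semaphorins of classes 5 to 7, 6 held a SOX peak. Sema5a and Sema5b, whose products keep retinal neurites in the inner part of the retina, held SOX9 at their starts at P2 and no SOX peak at P17. Sema6a, a transmembrane ligand of the plexins Plxna2 and Plxna4, held both factors at 1 end of the gene at P2 alone, with widths of 2790 bp for SOX8 and 5768 bp for SOX9. Sema6c had peaks at P17 alone, over its starts (chr3:95159884-95164705) and at the end of the gene (chr3:95168287-95174393), both of SOX9. Sema7a, a lipid-anchored semaphorin, held P17 SOX8 alone, at chr9:57943354-57948220, 5.67 kb into the gene, with H3K27ac and without H3K4me3.

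Sema6b held P2 SOX9 at its start and 3 P17 SOX8 peaks along a gene of 17.3 kb. The P17 peaks covered chr17:56137489-56141649 at the start, with H3K4me3, and chr17:56129899-56132946 and chr17:56123516-56125911, with neither mark. Sema6d, the remaining gene of these classes, held neither SOX nor H3K4me3 in any list.

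The 3 Slit genes, which encode secreted repellents, all held P2 SOX9 and none held a SOX peak at P17. Over all genes, 27.7% held P2 SOX9, 13.0% P17 SOX8 and 15.7% P17 SOX9, so most genes lacked each P17 factor. At Slit2 the SOX9 peak lay at the start (chr5:47982627-47985440), under H3K4me3 that was listed at both ages. Slit1 and Slit3 held no H3K4me3 at either age. At Slit1, SOX8 (chr19:41745727-41747740) and SOX9 (chr19:41745007-41747265) lay at 1 end of the gene, and at Slit3 SOX9 lay at chr11:35512438-35515778, 393 kb into the gene. Both genes had P2 H3K27ac under these peaks.

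Of the 4 netrin genes, 2 held SOX peaks, Ntn3 and Ntn5, and neither Ntn1, the netrin of the optic disc, nor Ntn4, a netrin of basement membranes, held one. Ntn3 is a gene of 5.56 kb beside Tbc1d24, and each of its SOX peaks overlapped Tbc1d24 and lay within 1 kb of a Tbc1d24 start. These covered chr17:24204982-24207649 for P2 SOX8, chr17:24203846-24210141 for P17 SOX8, chr17:24204289-24210336 for P2 SOX9 and chr17:24203889-24210253 for P17 SOX9. The last 3 also reached the Ntn3 start. Ntn5 held SOX at P17 alone, with SOX9 at chr7:45682446-45687764 and a SOX8 peak of 322 bp at chr7:45688489-45688810, both over the overlapping gene Sec1 and without either mark.

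Among receptors, 9 of the 14 Eph genes held a SOX peak. By list, 8 held P2 SOX9 (27.7% of all genes), 4 P17 SOX9 (15.7%), 3 P2 SOX8 (15.1%) and 2 P17 SOX8 (13.0%). Ephb2, whose product reads ephrin-B in ventral ganglion cell axons, held the most peaks of any guidance gene, with 2 for P2 SOX8, 2 for P17 SOX8, 4 for P2 SOX9 and 3 for P17 SOX9. At its start the P2 SOX8 (chr4:136833623-136837384), P17 SOX8 (chr4:136833624-136837247) and P2 SOX9 (chr4:136831927-136837821) peaks overlapped one another, with H3K4me3 at both ages. P17 SOX9 was not listed there. Inside the gene of 189 kb the sites of the ages did not overlap. At P2, SOX9 covered chr4:136771401-136774969, chr4:136755006-136759418 and chr4:136749162-136751581, and SOX8 covered chr4:136749551-136751994. At P17, SOX9 covered chr4:136802385-136808273, chr4:136738264-136744618 and chr4:136695573-136701544, and SOX8 covered chr4:136801749-136807511. All 8 internal peaks lacked H3K4me3, and the P2 ones overlapped H3K27ac. Of the P17 ones, the SOX9 peak farthest from the start, with its centre 137 kb into the gene, overlapped H3K27ac at one edge (134.468 to 140.439 kb against 133.015 to 136.037 kb), and the others did not overlap it.

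**Figure D3:**
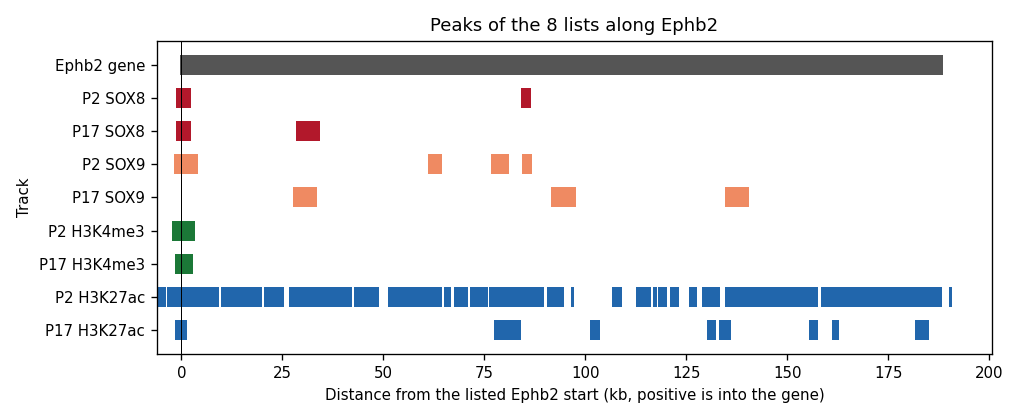
Peaks of the 8 lists along Ephb2 (x axis, kb from the listed start, positive into the gene; 1 row per list, bars to scale). SOX peaks at P2 inside the gene lie between 61.043 and 86.850 kb, and those at P17 lie at 27.739 to 34.263, 91.394 to 97.748 and 134.468 to 140.439 kb.

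Ephb3 and Ephb1 also held SOX9 at both ages. Ephb3 held SOX8 (chr16:21203553-21206506) and SOX9 (chr16:21203727-21206414) at its start at P2, and at P17 a single SOX9 peak of 8376 bp (chr16:21213422-21221797), 12.8 kb into the gene, with neither mark. Ephb1, a receptor of the axons that stay on their own side of the brain, held SOX9 at its start at both ages. Epha2, Epha4, Epha5 and Ephb6 held P2 SOX9 at their starts, and Epha5 held P2 SOX8 there too, within 1 kb of a start of the predicted gene Gm42163. A second P2 SOX9 peak at Epha2 (chr4:141305418-141307889) lay 5.43 kb into the gene, with H3K27ac and without H3K4me3. The P2 SOX9 peak scored for Epha6 lay beyond its 3′ end, at the start of Arl6.

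Epha8 was the Eph gene with SOX peaks at P17 alone. SOX9 covered its start (chr4:136952838-136959070), with H3K27ac, and SOX8 covered chr4:136931014-136934581 and chr4:136935571-136936882, 24 and 20.6 kb into the gene, with neither mark. H3K4me3 was listed at Epha8 at P2 and not at P17. Epha1, Epha3, Epha7, Epha10 and Ephb4 held no SOX peak.

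Of the 9 plexins, the signalling receptors for semaphorins, 7 held a SOX peak. Plxna2 held all 4 lists at its start, at chr1:194618484-194621867 for P2 SOX8, chr1:194618845-194621140 for P17 SOX8, chr1:194618173-194622231 for P2 SOX9 and chr1:194618918-194621106 for P17 SOX9. The P17 SOX9 peak, of 2189 bp, was the narrowest P17 SOX9 peak of the guidance genes, where the median was 6039.5 bp. A further P2 SOX9 peak lay 154 kb into the gene (chr1:194773055-194775331), in H3K27ac. Plxna1 and Plxna4 have no listed start. Plxna4 held P2 SOX9 at 1 end of the gene. At Plxna1, P2 SOX9 covered chr6:89359963-89363848 at an end shared with the predicted gene Gm40415, and P17 SOX9 covered the adjoining chr6:89351755-89359934 (8180 bp).

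Plxnb1 and Plxnb2 held both factors at their starts at P2 and SOX8 alone at P17. At Plxnb1 the P2 peaks covered chr9:109094480-109098895 for SOX8 and chr9:109094231-109097645 for SOX9. Its P17 SOX8 peaks were chr9:109102616-109107272, 9.51 kb into the gene, and a peak of 57 bp at chr9:109098302-109098358. At Plxnb2 the P2 peaks covered chr15:89177952-89181694 for SOX8 and chr15:89177835-89180230 for SOX9, and the P17 SOX8 peak, chr15:89156601-89160097, lay 15.6 kb in with neither mark. Plxnc1 held P2 SOX9 (chr10:94942560-94946187) and P17 SOX8 (chr10:94942126-94945837) at the same start. Plxnd1, a receptor also known in blood vessels, held a P2 SOX9 peak of 7512 bp at its start (chr6:115989919-115997430), the widest P2 SOX9 peak of the guidance genes. At P17 its SOX8 (chr6:115966694-115970024) and SOX9 (chr6:115965501-115973097) peaks lay over 1 shared site, 26.6 and 25.7 kb into the gene, with neither mark. Plxna3 and Plxnb3, both on the X chromosome, held no SOX peak.

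Of the neuropilins, co-receptors of plexins for class 3 semaphorins, Nrp2 held SOX at P17 and Nrp1 held none, although both held H3K4me3 at both ages. The Nrp2 peaks, chr1:62705911-62709267 for SOX8 and chr1:62703809-62711310 for SOX9, were centred 4.27 and 4.24 kb into the gene, under H3K4me3 and H3K27ac. Of the 4 Robo receptors, Robo2 alone held SOX, as P2 SOX9 peaks at 2 places, 1 of them at a listed start (chr16:74410663-74413823) and the other (chr16:75088164-75090686) centred 3.35 kb from another start, both under H3K4me3. Robo1 held H3K4me3 at P2 only, and Robo3 and Robo4 held neither SOX nor H3K4me3.

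Among the netrin receptors, Unc5a, Unc5b and Unc5c held SOX peaks, and Dcc and Unc5d held none. Unc5b held SOX8 at its listed start at both ages and H3K4me3 at neither. Its SOX8 peaks covered chr10:60830207-60831988 at P2 and chr10:60826637-60832623 at P17 (5987 bp), and a P17 SOX9 peak covered chr10:60807795-60813419, 21.0 kb into the gene. None of the 3 overlapped H3K4me3 or H3K27ac of its age, and the P2 one was the only P2 SOX8 peak without either mark, of 18 at guidance genes and of 2505 at genes in general. Unc5c held P2 SOX9 at its start. Unc5a held P2 SOX9 at its start (chr13:54947741-54950676) and 7.24 kb in (chr13:54955588-54957723). At P17, Unc5a held SOX8 of 6696 bp (chr13:54974878-54981573) and SOX9 of 9493 bp (chr13:54975188-54984680) over 1 shared site with H3K27ac, a SOX9 peak at its 3′ end (chr13:55000468-55006001) that overlapped the neighbour Hk3, and a SOX8 peak of 130 bp (chr13:54954049-54954178).

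Over the whole set, a lower share of SOX peaks lay under H3K4me3 at P17 than at P2, as was so over all genes. Of 43 P2 SOX9 peaks, 33 overlapped H3K4me3 (76.7%, against 84.9% of all P2 SOX9 peaks at genes), and of 18 P2 SOX8 peaks, 13 did (72.2%, against 92.9%). At P17, 11 of 26 SOX9 peaks did (42.3%, against 68.7%) and 11 of 26 SOX8 peaks (42.3%, against 71.4%). Guidance gene peaks also lay less often within 1 kb of a start of any gene. At P2 these shares were 83.3% against 89.5% for SOX8 and 74.4% against 84.5% for SOX9. At P17 they were 46.2% against 71.7% and 53.8% against 72.9% in the same order. The part of place in the mark shares was not tested. Peaks with neither mark were 10 of 26 for P17 SOX8 (38.5%, against 13.1%) and 9 of 26 for P17 SOX9 (34.6%, against 13.0%), while P2 SOX9 had 0 of 43, where the P2 H3K27ac list is the long one. The 10 P17 SOX8 peaks without a mark lay at Efna3, Ephb2, Ntn5, Plxnb2, Plxnd1 and Unc5b, with 1 each, and at Epha8 and Sema6b, with 2 each. The 9 P17 SOX9 peaks lay at Efna1, Ephb3, Ntn5, Plxnd1, Sema6c, Unc5a and Unc5b, with 1 each, and at Ephb2, with 2.

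Sites found at both ages made up a smaller share at guidance genes than at genes in general, a difference for which no test was made. Of the P17 peaks, 7 of 26 for SOX8 overlapped a P2 peak of the same factor (26.9%, against 51.2% of all P17 SOX8 peaks at genes) and 8 of 26 for SOX9 (30.8%, against 59.9%). Of the P2 peaks, 7 of 18 for SOX8 overlapped a P17 peak (38.9%, against 47.0%) and 7 of 43 for SOX9 (16.3%, against 32.7%). SOX8 and SOX9 coincided at 16 of 18 P2 SOX8 peaks (88.9%, against 94.7%) and at 11 of 26 P17 SOX8 peaks (42.3%, against 59.9%). Median widths at guidance genes were 2729 bp for P2 SOX8, 3596 bp for P17 SOX8, 3161 bp for P2 SOX9 and 6039.5 bp for P17 SOX9, against 2211, 2903, 2650.5 and 5309 bp over all SOX peaks at genes.

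**Figure D4:**
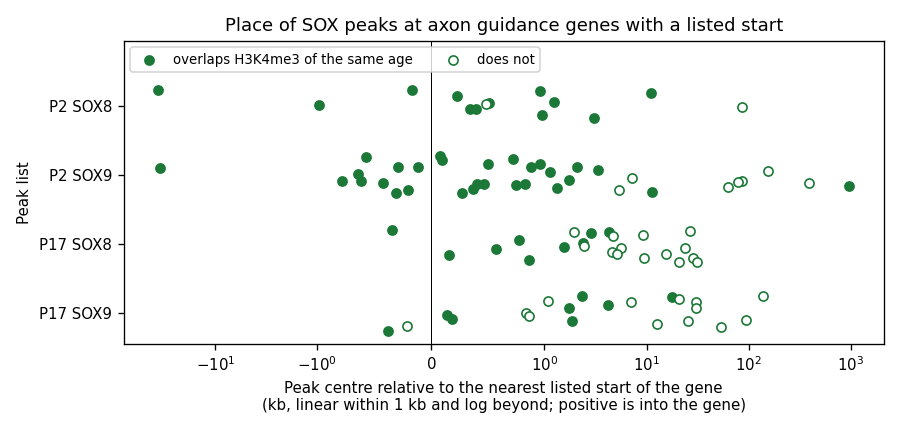
Centre of each SOX peak relative to the nearest listed start of its guidance gene (x axis, kb, linear within 1 kb and logarithmic beyond), by list (y axis, points spread for legibility). Peaks of genes with no listed start are not shown. Filled points overlap H3K4me3 of the same age and open points do not. Most P2 points lie near the start, and open points reach to 393 kb into the gene at P2 (Slit3) and to 137 kb at P17 (Ephb2). The farthest point, filled and at 966 kb, is the P2 SOX9 peak scored for Epha6 at the start of Arl6.

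The promoter mark itself was listed at 10 guidance genes at P2 only (3.40% of all genes), at 3 at P17 only (5.0%) and at 39 at both ages (45.9%). The P2-only genes were the ephrins Efna2, Efna4 and Efnb3, the Eph receptors Epha2, Epha3, Epha8 and Ephb4, the plexins Plxna3 and Plxnd1, and Robo1. Of these 10, Efna2, Epha8 and Plxna3 still held P17 H3K27ac and the other 7 did not. The Efna2 peak (chr10:80136285-80179213, 42929 bp) ended in its upstream flank, before the gene begins, and lay over neighbouring genes. The P17-only genes were Epha10, Unc5d and Ntn5, but the Ntn5 peak lay at the starts of Car11 and Dbp beyond the end of Ntn5. H3K4me3 was listed at neither age for 17 genes, of which Sema3b, Slit1, Slit3 and Unc5b held a SOX peak and the other 13 did not. Those 13 were Epha1, Ntn1, Plxnb3, Robo3, Robo4, Sema3a, Sema3c, Sema3d, Sema3e, Sema3g, Sema4a, Sema4f and Sema6d.

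H3K27ac was listed at 23 guidance genes at P2 only (25.1% of all genes), at 0 at P17 only (0.315%) and at 46 at both ages (56.7%). The share of the gene and its flanks covered by H3K27ac peaks had a median of 43.2% at P2 and 2.82% at P17 over the guidance genes, and of 20.9% and 4.85% over all genes. Because the P2 list held far more peaks, the comparison was repeated with its widest peaks in the number of the P17 list, which was added once the lists had been seen. The median over guidance genes was then 15.5% at P2 against 2.82% at P17, whereas over all genes it was 0.00% against 4.85%. With the lists at equal number, 17 guidance genes were covered more at P17 (24.6%, against 40.7% of all genes) and 44 less (63.8%, against 23.6%).

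With the whole P2 list, 5 guidance genes were covered more at P17 than at P2 (7.25%, against 20% of all genes): Ntn3, Plxna2, Sema3f, Sema6c and Sema7a. Plxna2 went from 68.1% to 90%, and 1 P17 H3K27ac peak of 131631 bp (chr1:194617981-194749611) covered most of the gene from its start. Sema7a went from 64.6% to 71.9% and Sema6c from 18.5% to 33.2%. Sema3f went from 94.0% to 100% under a peak of 102021 bp (chr9:107643427-107745447) that also spans Slc38a3, Gnat1 and Rbm5. Ntn3 went from 40.9% to 91.6% under a peak shared with Tbc1d24. At the other extreme, Plxnd1 went from 98.9% to 0.00% and Epha2 from 92.4% to 0.00%. Ephb2 went from 83.2% to 12.2% and Sema5a from 63.8% to 0.930%.

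**Figure D5:**
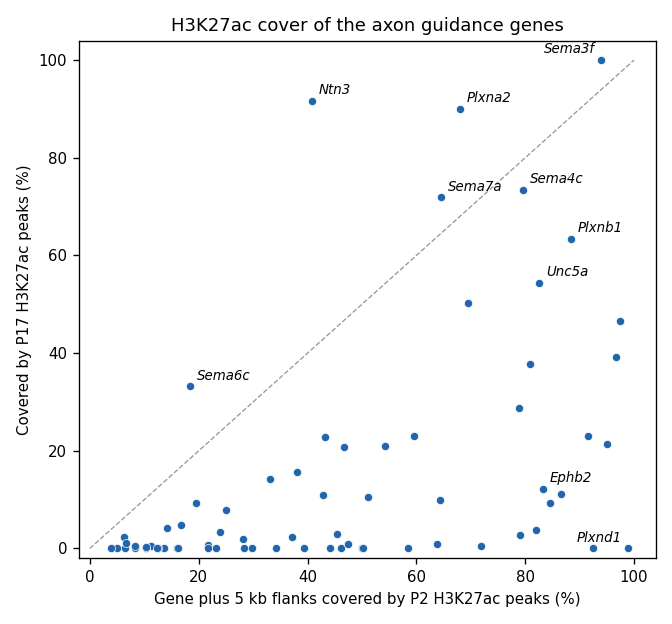
Share of each guidance gene plus 5 kb flanks covered by H3K27ac peaks at P2 (x axis, percent) and at P17 (y axis, percent), 1 point per gene, with the line of equal cover. 5 of 69 points lie above the line, among them Plxna2 at 68.1% and 90%, and the P2 list holds 287845 peaks against 29909 at P17.

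Other genes of the guidance pathways, 87 in all, act downstream of these receptors or beside them. SOX peaks lay at 32 of them for P2 SOX8 (36.8%, against 15.1% of all genes), 28 for P17 SOX8 (32.2%, against 13.0%), 56 for P2 SOX9 (64.4%, against 27.7%) and 30 for P17 SOX9 (34.5%, against 15.7%), and 60 held a SOX peak in some list (69.0%, against 33.9%). H3K4me3 lay at 76 at P2 (87.4%, against 49.3%) and 72 at P17 (82.8%, against 50.9%). Among those with H3K4me3 of the same age, P2 SOX8 lay at 32 of 76 (42.1%, against 29.8% of all such genes), P2 SOX9 at 55 of 76 (72.4%, against 53.3%), P17 SOX8 at 27 of 72 (37.5%, against 23.1%) and P17 SOX9 at 28 of 72 (38.9%, against 27.4%). By group, P2 SOX9 lay at 14 of 17 Eph effectors, 15 of 23 semaphorin effectors, 9 of 12 Slit and Robo effectors, 13 of 22 netrin effectors and 5 of 13 other cues, and P17 SOX9 at 6, 12, 5, 3 and 4 in the same order. At P2, 32 genes held both factors, and the 15 with the widest peaks were Cfl1, Srgap2, Dscaml1, Src, Tiam1, Gsk3b, Rras, Pip5k1c, Trim9, Cdon, Itsn1, Enah, Sipa1l1, Gpc1 and Mical1. At P17, 24 did, and among the widest were those at Dpysl4, Pip5k1c, Dscaml1, Islr2, Arhgap39, Src, Gipc1, Cfl1, Vav2, Cdk5, Rras, Ntng2, Fes and Srgap2. The widest of these at P2 covered 5006 bp, for SOX9 at Cfl1, the gene of the actin-severing protein cofilin, and at P17 13823 bp, for SOX9 at Dpysl4, a collapsin response mediator.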

How the data were processed

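CUT&RUN libraries of P2 and P17 retina were represented by 8 deposited peak lists, which hold positions in bp. The score the authors deposited with each peak was 0 throughout, so it was not used. Bowtie2 and SEACR and the build GRCm38 are named, without versions, per the submitters' processing notes. Thresholds, use of IgG and the joining of libraries are not given in the sources used here, and depth is unknown. No list names separate cultures or animals.

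Genes came from the RefSeq annotation GRCm38.p6. A peak was assigned by an overlap of at least 1 bp with a gene plus 5 kb flanks. Promoters were read from RefSeq for 59 of the 69 genes. Counts were set beside the same counts over all genes, with no test. The genes and all lists, including the markers, were chosen with earlier results of these data known.

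Every gene with a SOX peak is named. Positions are given for genes with at least 3 SOX lists, with SOX at P17 only, among the 5 widest per list, or with SOX off H3K4me3, and at most 15 pathway genes per age are named by width. Not every gene that this rule picks is reported here.

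Alternatives were a 1 kb window at starts, no flanks, peak centres, peaks of at least 1 kb, an overlap of 50% of the shorter peak and equal numbers of widest peaks. Python 3.11, numpy 2.4.6 and pandas 2.3.3 were used. Tested on simulated data, 200 of 200 genes given a peak among 21887 were recovered.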

Additional observations from a re-analysis of the deposited data

How the results depend on the processing

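Of 76 alternative values, 68 stayed within 1.5 times the reported count and 8 moved beyond it. Counting only peaks within 1 kb of a start gave 10 genes with P17 SOX8, 12 with P17 SOX9, 4 with SOX8 at both ages (5.80%, against 5.96% of all genes), 6 with SOX9 at both ages (8.70%, against 8.02%), 1 with H3K27ac at P17 only (1.45%, against 1.54%) and 30 with H3K27ac at both ages (43.5%, against 45.8%). For SOX8 and H3K27ac at both ages, and for P17 H3K27ac (44.9%, against 47.3%), the share of guidance genes was then below that of all genes, whereas over whole genes it was above. Widest peaks in equal number at both ages gave 15 genes with H3K27ac at P2 only (21.7%, against 7.28%) and 6 at P17 only (8.70%, against 23.8%). These settings keep fewer peaks by construction. Leaving out genes whose SOX peaks lie only at the start of another gene, a setting added after the data were seen, gave 14 for P2 SOX8, 18 for P17 SOX8, 33 for P2 SOX9 and 19 for P17 SOX9. No share over all genes was computed with this filter, so these counts cannot be set beside a background. No paired analysis was possible because the lists carry no replicate numbers and no result comes from a test, and for the same reason no replicate could be left out. The lists carry no depth or score, so a missing peak may be a weak one.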

Other observations

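Beyond the 5 kb flanks, the nearest gene to a SOX peak was a guidance gene for 3 of 430 P2 SOX9 peaks that lay outside all gene regions, and for 0 of 148 P2 SOX8, 0 of 111 P17 SOX8 and 0 of 151 P17 SOX9 peaks. Guidance genes are 69 of 21887 protein-coding genes, and counts this small are not read as a result about them. The 3 peaks lay 9.01 kb from Epha8 (chr4:136965871-136967761), 27.8 kb from Plxna1 (chr6:89285551-89288470) and 34.4 kb from Efnb1 (chrX:99183446-99187398). Each overlapped P2 H3K27ac, and none overlapped P2 H3K4me3 or a peak of another SOX list. By nearest gene alone, Epha8 had a P2 SOX9 peak outside its flanks, and it had P17 SOX peaks within them. Efnb1, the gene of a transmembrane ephrin, had no SOX peak within its own flanks in any list.

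The widest H3K4me3 peaks of guidance genes at P2 lay at Efnb2 (8876 bp), Epha5 (7464 bp), Sema6a (7422 bp), Plxnb1 (7328 bp) and Efna5 (7268 bp), each of which held both SOX8 and SOX9 at that age. The Epha5 peak also overlapped Gm42163, and the Plxnb1 peak Ccdc51. Both factors were listed at P2 at 23.2% of guidance genes and 14.5% of all genes. Other genes with H3K4me3 peaks as wide were not compared, so a link of width to SOX was not tested. At P17 the widest one clear of a neighbour's start lay at Plxna2 (7945 bp), and the wider ones scored for Sema3f (14661 bp) and Ntn5 (13090 bp) lay over Gnat1 and over Car11 and Dbp.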
